A study of Mus musculus with 6 samples.

Results

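The regions described here were the stretches of open chromatin that ranked among the strongest in all 3 Stag2-WT libraries and in no Stag2-KO library of mouse urothelial cells. Open chromatin had been mapped by ATAC-seq, which uses the Tn5 transposase to tag the DNA that it can reach. The regions were chosen from the authors' peak lists by the fold of each peak over its local background. Each list was reduced to distinct intervals, the 50000 intervals of highest fold were kept, and the 6 kept lists were merged where they overlapped by at least 1 bp. Of the 70492 merged regions, 644 (0.914%) had a kept interval in the 3 Stag2-WT lists and in none of the Stag2-KO lists, and they are called WT-kept regions below. By the mirrored rule, 738 regions were KO-kept. In total 6381 regions were kept in exactly 3 of the 6 lists, and the WT-kept regions were 10.1% of them.

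The Stag2-KO group (3 libraries) and the Stag2-WT group (3 libraries) both came from mice fed a diet with TMX, the inducing agent, and both were collected 1 week after treatment began. In both groups the cells were GFP-positive and DAPI-negative, sorted from peeled urothelium, the epithelial lining of the bladder, with 50000 cells per condition and all libraries in batch 1, per the labels. The sources used here give no strain, age, driver of recombination or number of mice per library, so any p-value measures the spread between these libraries, which may be in part technical. Coordinates are in build mm10.

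Stag2 encodes one of a pair of alternative subunits of cohesin, a ring-shaped complex that encircles DNA, pairs sister chromatids and folds chromatin into loops. Loops of this kind are halted at sites bound by CTCF, and the STAG2 form of cohesin is also found at enhancers, the distal elements that are bound by tissue-specific and signal-dependent transcription factors. Distal elements vary more between cell states than promoters do, and in an epithelium many of them carry sites for AP-1, the dimers of Jun and Fos proteins.

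Only a few WT-kept regions lay over the start of an annotated transcript, and 6 such starts are shown because the reference holds their sequence. They are the best-ranked one (Gm28710, a predicted protein-coding gene), an interferon-induced gene (Ifit3b), a transcript start with an AP-1 match (Gm9875), one with a CTCF match (Gm32630), and the starts of Gm32846 and Gm32772, which resemble each other. Each is the RefSeq window from 250 bases before to 50 after the start (GRCm38.p6, the coordinates of mm10), 5′ to 3′ on the strand of the gene. Capitals mark matches on either strand to the AP-1 motif TGANTCA or to a CTCF core motif.
Gm28710, chr5:16791541-16791840, + strand: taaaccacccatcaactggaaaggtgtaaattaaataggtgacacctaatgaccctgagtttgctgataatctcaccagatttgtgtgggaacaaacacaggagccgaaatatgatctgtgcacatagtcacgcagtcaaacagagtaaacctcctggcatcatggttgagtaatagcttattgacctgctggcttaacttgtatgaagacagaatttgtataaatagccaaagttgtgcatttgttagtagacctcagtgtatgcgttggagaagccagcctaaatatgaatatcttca
Ifit3b, chr19:34607707-34608006, + strand: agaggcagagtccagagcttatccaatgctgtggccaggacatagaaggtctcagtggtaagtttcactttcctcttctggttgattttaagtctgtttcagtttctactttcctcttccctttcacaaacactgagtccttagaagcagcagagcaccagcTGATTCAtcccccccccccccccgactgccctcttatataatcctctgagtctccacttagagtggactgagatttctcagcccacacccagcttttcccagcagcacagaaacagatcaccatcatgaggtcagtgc
Gm9875, chr2:13558653-13558952, + strand: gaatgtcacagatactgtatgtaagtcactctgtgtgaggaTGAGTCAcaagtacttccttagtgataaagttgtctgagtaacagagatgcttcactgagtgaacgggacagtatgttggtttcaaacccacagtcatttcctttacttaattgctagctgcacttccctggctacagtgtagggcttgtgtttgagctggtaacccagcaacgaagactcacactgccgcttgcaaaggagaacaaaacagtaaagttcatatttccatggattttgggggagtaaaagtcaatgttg
Gm32630, chr7:16932100-16932399, - strand: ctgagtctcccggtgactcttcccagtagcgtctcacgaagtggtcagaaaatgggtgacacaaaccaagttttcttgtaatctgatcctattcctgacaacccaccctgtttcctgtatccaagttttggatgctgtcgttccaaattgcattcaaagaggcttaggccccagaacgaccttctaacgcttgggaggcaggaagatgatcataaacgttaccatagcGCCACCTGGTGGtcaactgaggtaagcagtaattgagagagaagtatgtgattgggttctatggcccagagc
Gm32846, chr7:17527622-17527921, - strand: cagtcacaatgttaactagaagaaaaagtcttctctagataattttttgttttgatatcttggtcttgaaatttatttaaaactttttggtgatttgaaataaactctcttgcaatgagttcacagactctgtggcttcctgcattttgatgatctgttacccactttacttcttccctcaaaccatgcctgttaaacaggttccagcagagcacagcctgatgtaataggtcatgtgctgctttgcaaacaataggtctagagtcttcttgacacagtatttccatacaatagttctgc
Gm32772, chr7:17328739-17329038, - strand: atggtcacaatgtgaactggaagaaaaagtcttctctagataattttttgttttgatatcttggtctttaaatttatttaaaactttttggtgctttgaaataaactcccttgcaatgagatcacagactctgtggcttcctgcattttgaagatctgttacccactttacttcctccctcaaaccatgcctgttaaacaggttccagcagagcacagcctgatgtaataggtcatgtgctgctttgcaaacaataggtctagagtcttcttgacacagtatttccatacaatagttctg

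The peak lists held between 181987 and 299636 peaks, and the fold at rank 50000 was 8.24, 11.02 and 8.38 in KO replicates 1 to 3, against 7.33, 12.06 and 8.80 in WT replicates 1 to 3. Gene ends (within 500 bp of the start or the end of a protein-coding gene) held 20.4% ± 1.14 of the kept intervals in KO and 18.5% ± 0.426 in WT (SD, n = 3 each; exact permutation test, two-sided p = 0.1, adjusted over 3 properties 0.15). The kept intervals were 435 ± 12.5 bp wide (median) in KO and 480 ± 25.03 bp in WT (p = 0.1 in the same exact test, adjusted 0.15). The fold at rank 50000 had p = 0.9 in that exact test, and 0.1 is the smallest p that 3 against 3 allows. A kept interval at a gene end was found for 15 to 17 of 25 luminal urothelial genes in KO and for 9 to 14 in WT, with Upk1b, Upk2, Upk3a and Upk3b of the uroplakin plaque covered in all 6 libraries and Foxa1 and Gata3 in none. For basal urothelial genes the counts were 7 to 10 of 20 in KO and 4 to 7 in WT, with the basal markers Krt5, Krt14 and Trp63 in none. Of 16 immune genes 3 were covered in each library, always with Cd68 and Spi1, while Ptprc was covered in none; of 10 endothelial genes 1 to 2 were covered in KO and 0 to 1 in WT, with Pecam1 and Cdh5 in none; of 16 fibroblast and smooth muscle genes 3 to 5 in KO and 3 to 6 in WT, with Col1a1 and Pdgfra in none; and of 10 neural and Schwann cell genes 3 to 6 in KO and 3 to 5 in WT, with Sox10 in none. In sorted bulk cells, fewer cells with a site open and a weaker opening per cell cannot be told apart.

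Most WT-kept regions were weaker in the KO libraries, not absent from them. An interval lay in all 3 whole KO lists at 563 of the 644 regions (87.4%), in 2 of them at 49, in 1 at 19 and in none at 13. The lowest −log10 p listed was 3.00 in KO replicate 1 and 2.00 in KO replicates 2 and 3. Absence from the list of KO replicate 1 was therefore set at a stricter p. The median rank by fold, where rank 1 is the highest fold, was 78916, 69891 and 58876 in KO replicates 1, 2 and 3, against 38234, 40301 and 37197 in WT replicates 1, 2 and 3. The KO medians cover only the 584, 602 and 620 regions with an interval in the list, and the WT medians cover all 644. The rule fixes the direction of this difference, so it is a description. To put libraries of different enrichment side by side, the fold was divided by the fold at rank 50000 of the same library. The median of this relative fold, over the same regions, was 0.631, 0.671 and 0.848 in KO replicates 1 to 3 and 1.24, 1.20 and 1.27 in WT replicates 1 to 3. KO replicate 3 was thus the nearest to the WT libraries, and 205 of its 620 listed regions lay within 5000 ranks of the threshold, against 51 of 584 in KO replicate 1 and 87 of 602 in KO replicate 2. At 396 of the 631 regions with any KO interval, the best KO rank was that of KO replicate 3.

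**Figure D1:**
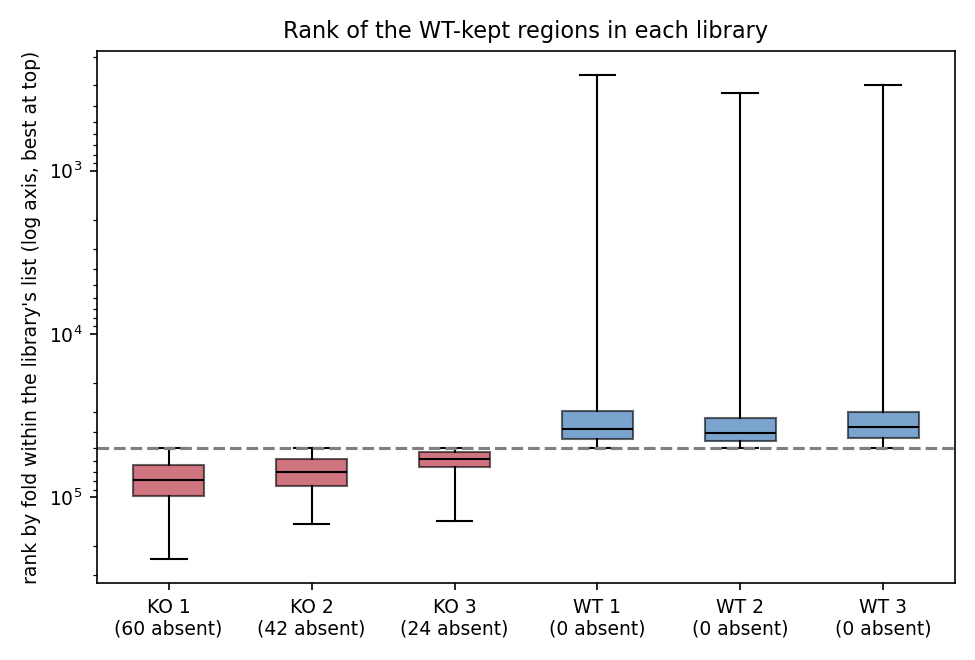
Rank by fold of the 644 WT-kept regions in the list of each library (log axis, best rank at the top), for 3 KO libraries (red) and 3 WT libraries (blue). Boxes span the quartiles with the median as a line, whiskers reach the extremes, the dashed line is rank 50000, which the rule uses, and regions with no interval are counted under each label. The medians, over regions with an interval, lie at 78916, 69891 and 58876 in KO and at 38234, 40301 and 37197 in WT.

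The distance from the threshold was small for many of them. The best KO rank divided by the worst WT rank had a median of 1.28, was below 1.1 at 74 regions, and reached at least 1.5 at 153 and at least 2 at 50. Just inside the threshold, a region in Col4a6 (chromosome X, 141212807 to 141213187), a collagen gene of basement membranes, ranked 87695, 104628 and 51709 in the KO libraries and 26868, 49942 and 41721 in the WT libraries. A region in Mdfic (chromosome 6, 15743328 to 15743989) ranked 97137, 91601 and 92171 in KO and 21036, 48234 and 49941 in WT, and one on chromosome 9 (30781342 to 30781725) over the start of the lncRNA gene Gm31013 ranked 76955, 97556 and 72485 in KO and 32691, 49918 and 32544 in WT. In each of these, the worst WT rank stood at the edge of the kept list. In Mdfic the rank of WT replicate 2, 48234, was also near it, and the remaining WT ranks were better.

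Just outside, a region in Stk32c (chromosome 7, 139199999 to 139200444) ranked 53942, 50083 and 49997 in KO and 41864, 37973 and 27280 in WT. A region in Syt13 (chromosome 2, 92954776 to 92955234) ranked 60368, 49985 and 53737 in KO and 41795, 29402 and 34542 in WT, and a region near Aoc1 (chromosome 6, 48916574 to 48917164) ranked 105384, 51327 and 49979 in KO and 25038, 12315 and 18929 in WT. These 3 missed the rule by a single KO interval within 25 ranks of the threshold, although the KO and WT ranks did not overlap. Peaks share fold values: at 6 WT-kept regions the fold of a KO interval equalled the fold at rank 50000, and position in the genome decided that it was not kept.

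Single libraries set how many regions qualified. Leaving out a library can only keep or raise the count, and without KO replicate 3 it was 3187, against 772 and 879 without KO replicates 1 and 2. Without WT replicates 1, 2 and 3 it was 1125, 1904 and 999. Regions kept in the 3 WT lists and in 1 KO list numbered 2905, and that KO list was the one of KO replicate 3 at 2542 of them, of KO replicate 2 at 235 and of KO replicate 1 at 128. Membership also followed the list length: with 25000 intervals per list 410 regions were WT-kept, of which 27 were among the 644 (4.19% of the 644 and 6.59% of the 410). With 100000 intervals per list 1241 were, and 23 of the 644 were among them. When the lists were ranked by −log10 p, 538 regions were WT-kept, and 102 regions were shared, 15.8% of the 644 and 18.96% of the 538.

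Libraries that took no part in the choice gave a reading that the rule did not fix. For each pair of 1 left-out KO and 1 left-out WT library, regions were chosen from the other 4 libraries (kept in both WT lists, in neither KO list), and the left-out lists were then read. A kept interval was found in left-out KO replicate 1 at 8.86% to 23.4% of the chosen regions and in left-out KO replicate 2 at 13.9% to 31.7%. Over all regions of the choosing libraries these shares were 70.0% to 72.1% and 70.3% to 72.7%. In left-out KO replicate 3 it was found at 68.7% to 72.7%, close to the 71.0% to 73.1% of all regions of the choosing libraries that had one there. Left-out WT replicate 1 had a kept interval at 53.5% to 79.8% of the chosen regions, WT replicate 2 at 37.0% to 52.5% and WT replicate 3 at 59.2% to 87.3%, where the share over all regions was 70.2% to 73.0%. WT replicate 2 lay below its share over all regions in every choice. WT replicates 1 and 3 lay above theirs only where KO replicate 3 was the left-out KO library. The chosen regions were kept in only some of the choosing lists, while all regions included those kept in every list. The shares over all regions are thus those of an unlike set. In 8 of the 9 pairs the left-out KO library had the lower share. The exception was the pair of KO replicate 3 (68.7%) and WT replicate 2 (52.5%). The pairs share libraries, so no test was made over them.

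**Figure D2:**
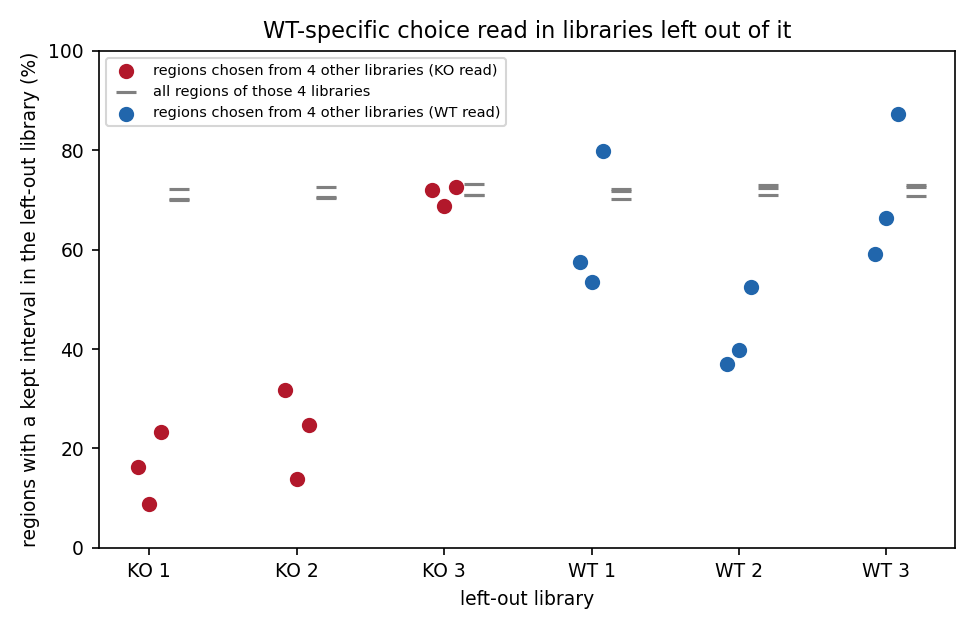
Share of regions with a kept interval (y axis, percent) in a library left out of the choice (x axis), for regions kept in both other WT lists and in neither other KO list. Each library has 3 points, 1 for each left-out library of the other genotype (red, KO libraries read; blue, WT libraries read), and grey dashes give the share over all regions of the 4 choosing libraries. KO replicates 1 and 2 lie between 8.86% and 31.7%, KO replicate 3 between 68.7% and 72.7%, and the WT libraries between 37.0% and 87.3%.

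Across all regions, limma was fitted to −log2 ranks of the 51841 regions with a kept interval in at least 3 libraries, a condition that every WT-kept region met through its WT libraries alone. Of the 644 WT-kept regions 15 were called lower in KO at an adjusted p below 0.05, while 18 of all regions (0.0347%) were called lower and 17 higher. With the replicate number as a block, 3 WT-kept regions were called, 3 of all regions lower and 7 higher. Without KO replicates 1, 2 and 3 the WT-kept calls numbered 2, 3 and 279, and 2, 3 and 2988 of all regions were called lower. Without WT replicates 1, 2 and 3 the WT-kept calls numbered 12, 39 and 6, and 14, 129 and 6 of all regions were called lower. With the share of kept intervals at gene ends as a covariate, limma called 0 WT-kept regions and 0 of all regions lower. In that limma fit, 140 of the 644 and 462 of the 51841 regions were lower in KO at an unadjusted p below 0.05. All 3 KO ranks were worse than all 3 WT ranks at 3891 of the 51841 regions (7.51%). The rule used this contrast, so nothing is read from these counts for the WT-kept regions.

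The WT-kept regions of best WT rank included 4 intergenic regions and 1 in a gene body, given here, that had no interval in any KO list. Another such intergenic region, near Traf3ip3, is described below. An interval on chromosome 9 (17508681 to 17509096), 783171 bp from the nearest protein-coding gene end, had no interval in any whole KO list and folds of 24.9, 43.3 and 32.8 in WT replicates 1 to 3, at ranks 1318, 336 and 299. One on chromosome 5 (18502782 to 18503315), 142369 bp from a gene end, was likewise missing from the KO lists and had folds of 25.8, 41.2 and 31.8 in WT. On chromosome 14, intervals at 86197516 to 86198256 and at 86537612 to 86538155 were missing from the KO lists, with WT folds of 29.0, 35.2 and 29.1 at the first and 24.7, 28.5 and 22.9 at the second. In Abcc4, the gene of a membrane transporter of nucleotides and drugs (chromosome 14, 118642861 to 118643458), the WT folds were 22.2, 26.6 and 23.5, again with no KO interval. At the 5 regions given here each WT fold was at least 2.21 times that library's fold at rank 50000.

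Other strong WT intervals had weak KO ones. Near Rab28, the gene of a small GTPase (chromosome 5, 41726771 to 41727477), the fold was 4.90 and 4.21 in KO replicates 1 and 2, with no interval in KO replicate 3, against 14.5, 34.3 and 29.7 in WT replicates 1 to 3. Near Cavin2, the gene of a coat protein of caveolae (chromosome 1, 51250162 to 51250844), it was 4.57 and 2.79 in KO replicates 1 and 3, with none in KO replicate 2, against 19.4, 30.8 and 25.1 in WT. At 16008 bp from an end of Kcnh2, a potassium channel gene (chromosome 5, 24302972 to 24303581), the KO folds were 4.90, 5.80 and 5.08 and the WT folds 13.0, 30.0 and 19.2. At each of these 3 regions the lowest WT relative fold was more than 2 times the highest KO relative fold.

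On chromosome 5, a region over the start of Gm28710 (16791290 to 16791881) had folds of 4.57, 8.41 and 7.49 in KO and 15.4, 31.4 and 20.5 in WT. Its sequence above holds neither an AP-1 nor a CTCF match. A region 13079 bp from Gm42226 (23718737 to 23719459) had 6.24, 3.92 and 7.36 in KO and 20.6, 23.2 and 20.3 in WT. On chromosome 1, a region 6685 bp from Traf3ip3 (193208231 to 193208535) was missing from the KO lists and had folds of 13.6, 33.5 and 18.2 in WT. By rank, WT replicate 2 was the best of the WT libraries at the Gm28710 and Traf3ip3 regions, at 6032 and 4161, and the weakest at the Gm42226 region, at 17564 against 4713 and 10123 in WT replicates 1 and 3.

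**Figure D3:**
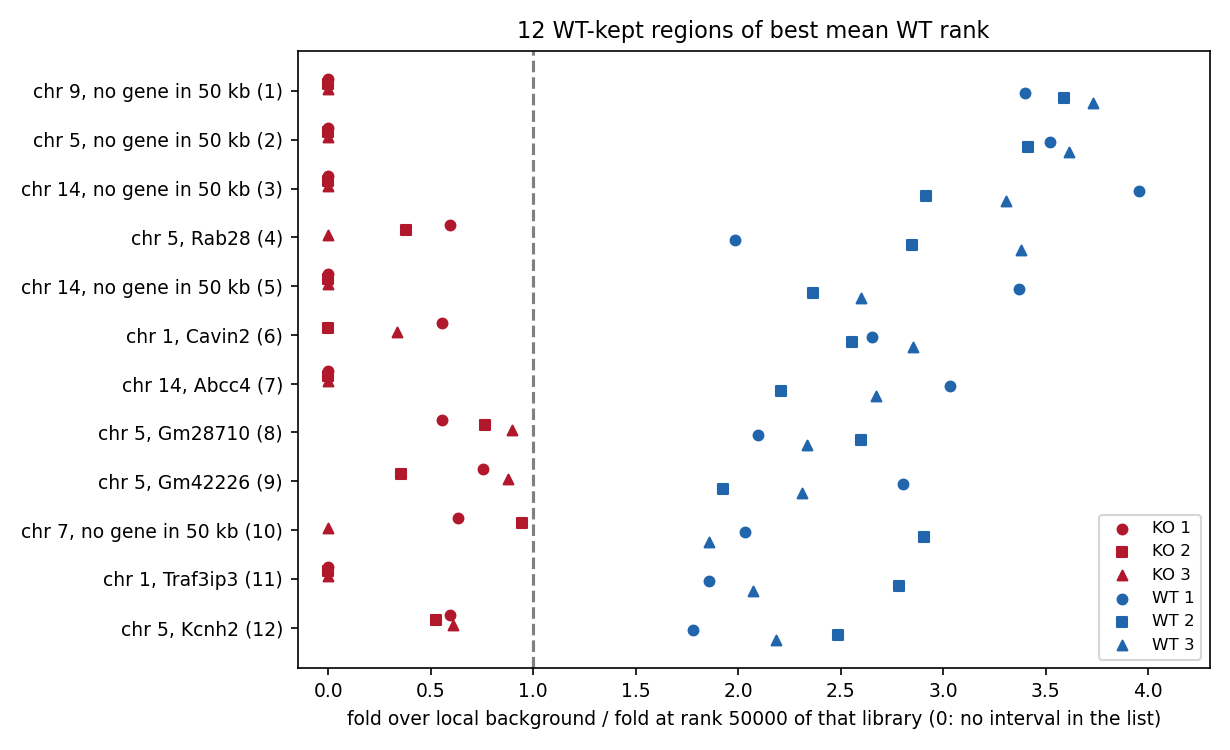
Fold over local background divided by the fold at rank 50000 of the same library (x axis) for the 12 WT-kept regions of best mean rank in WT (y axis, best at the top, named by chromosome and host gene or nearest gene within 50 kb). Points are libraries (red, KO; blue, WT), the dashed line is the threshold of the rule, and 0 stands for no interval in the whole list. WT points reach 3.95, and the KO points lie at 0 or below 1, which the rule fixes.

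In all, 13 WT-kept regions had no interval in any whole KO list. This count was 57 when KO replicate 3 was left out, 24 and 21 when WT replicates 2 and 3 were, and 6 with lists of 25000 intervals. Besides the 6 above they lay in Rab3gap2 (chromosome 1, 185252931 to 185253555), in Kmt2e, a gene of a SET domain protein (chromosome 5, 23490868 to 23491121), in Uhrf1bp1 (chromosome 17, 27897269 to 27897861), in Alk, a receptor tyrosine kinase gene (chromosome 17, 72132115 to 72132539), near Foxr1 (chromosome 9, 44427397 to 44427911), 360 bp from an end of Tmem178 (chromosome 17, 81002176 to 81002552) and near Psg22 (chromosome 7, 18710374 to 18710837). Their WT ranks were weaker. In Rab3gap2 they were 42435, 7771 and 30903, in Kmt2e 29888, 25759 and 39140, in Alk 33187, 42123 and 39084, and near Psg22, a pregnancy-specific glycoprotein gene of a multigene family, 47603, 49889 and 30015.

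WT-kept regions were spread over all autosomes and X. They made up between 0.455% (22 of 4834, chromosome 11) and 1.29% (37 of 2870, chromosome 14) of the regions of a chromosome. Of the 644 regions, 86 (13.4%) had another WT-kept region within 100 kb. The 63 regions whose best KO rank was at least 2 times their worst WT rank, or that had no KO interval, lay in 39 of 276 windows of 10 Mb, and 37 of them lay in 13 windows that held at least 2. The window at 20 to 30 Mb of chromosome 7 held 5 of them, and those at 10 to 20 Mb of chromosome 7, at 80 to 90 Mb of chromosome 14 and at 40 to 50 Mb of chromosome 9 held 4 each. The chromosome 14 window had only 23 merged regions in all. This grouping was looked for after the values were seen and was not tested. A peak list does not tell a closed site from a sequence that is missing or diverged in the mice of a group, and this was not tested either.

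The densest stretch was in the Cyp2b cluster, a tandem family of cytochrome P450 genes whose products oxidise drugs and steroids, chiefly in liver. On chromosome 7, from 25988348 to 26196867, 6 of 8 merged regions were WT-kept and none was KO-kept. The 6 lay over the pseudogenes Cyp2b28-ps, Cyp2b27-ps and Cyp2b26-ps, in Cyp2b13, in Cyp2b9 and between these genes. Over Cyp2b28-ps (25988348 to 25988794) the relative fold was 0.635 and 0.947 in KO replicates 1 and 2, with no interval in KO replicate 3, against 2.03, 2.90 and 1.86 in WT replicates 1 to 3. In Cyp2b9 (26196394 to 26196867) it was 0.276 in KO replicate 2, with no interval in KO replicates 1 and 3, against 1.65, 1.23 and 1.72 in WT. Over Cyp2b27-ps and Cyp2b26-ps the values were nearly equal to each other in every library, at 0.513 and 0.539 in KO replicate 2, with no interval in the other KO lists, against 2.02 and 2.01 in WT replicate 1, 1.31 and 1.32 in WT replicate 2, and 1.89 and 1.93 in WT replicate 3. The whole lists held 6, 8 and 0 intervals in this stretch in KO replicates 1, 2 and 3, and 20, 26 and 18 in WT replicates 1, 2 and 3. KO replicate 3, whose median rank over its listed WT-kept regions was the nearest to WT, was here the library with no interval. Copies of a gene family can share reads, so values of single copies are uncertain.

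**Figure D4:**
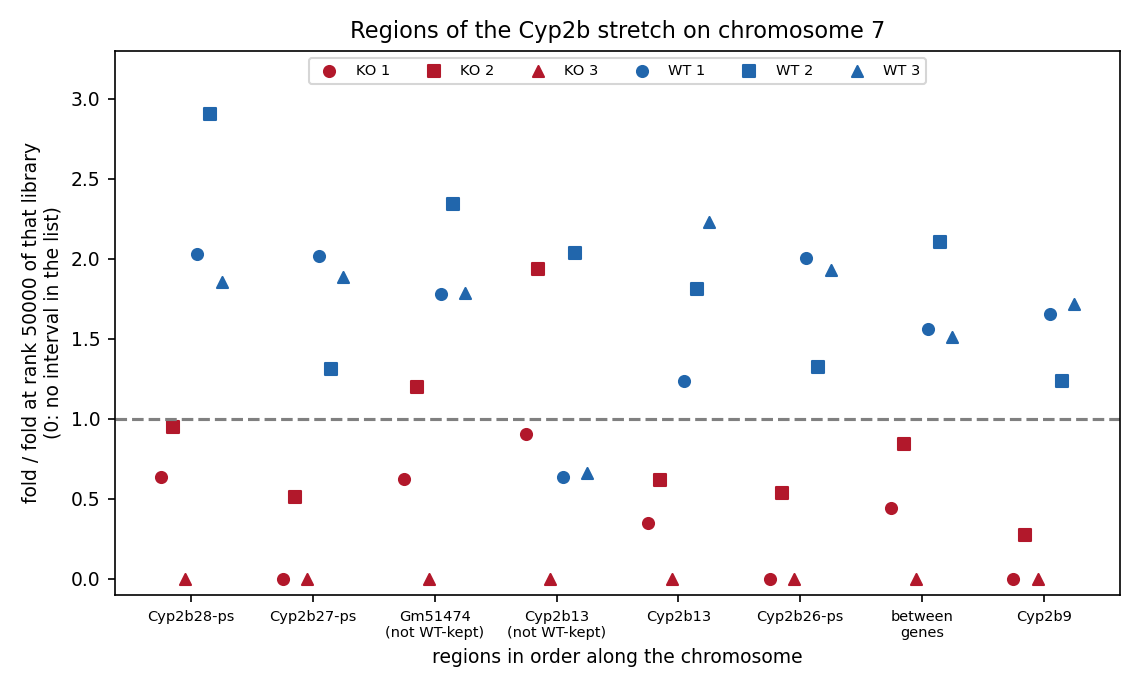
Fold divided by the fold at rank 50000 of the same library (y axis; 0 for no interval in the list) at the 8 merged regions of the Cyp2b stretch on chromosome 7, in order along the chromosome (x axis, named by the annotated gene or pseudogene they overlap). Red points are KO libraries, blue points WT libraries, and the dashed line is the threshold of the rule. KO replicate 3 has no interval at any of the 8 regions, and the 2 regions that are not WT-kept have a kept interval in KO replicate 2.

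Near-copies also occurred at 17 Mb of the same chromosome. The regions at 17527524 to 17527874 and 17328638 to 17328986 overlap the starts of the lncRNA genes Gm32846 and Gm32772, whose sequences printed above are identical at 289 of 299 aligned bases (96.7%). The Gm32846 region ranked 58132, 56796 and 65786 in KO and 16767, 14287 and 12485 in WT. The Gm32772 region ranked 65169 and 74314 in KO replicates 1 and 2, with no interval in KO replicate 3, and 32112, 29253 and 23031 in WT. Another region of this neighbourhood, over the start of the lncRNA gene Gm32630 (16932024 to 16932484), ranked 89678, 71020 and 61180 in KO and 12816, 29252 and 21150 in WT. Its start sequence holds the CTCF match printed above, GCCACCTGGTGG on the gene's strand.

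WT-kept regions lay at gene ends in 17 of 644 cases (2.64%, 95% Wilson interval 1.65% to 4.19%), against 11741 of the 69848 other regions (16.8%, 16.5% to 17.1%). Intergenic regions were 321 (49.8%, 46.0% to 53.7%) of the WT-kept and 37.9% (37.5% to 38.2%) of the others, and 306 (47.5%) lay in gene bodies against 45.3%. These intervals cover counting over regions only. Among 18211 other regions kept in all 3 WT lists and in the same range of mean WT rank (20064 to 45472), gene ends were 19.9%. The median distance to a gene end was 25678 bp, against 14542 bp for the other regions and 12114 bp for those of like WT rank, and 207 WT-kept regions (32.1%) were more than 50 kb from any, against 23.1% and 20.7%. Of the KO-kept regions 17.6% lay at gene ends. With ranking by −log10 p these shares were 4.28% for the WT-kept and 8.81% for the KO-kept regions. The KO libraries had more of their kept intervals at gene ends than the WT libraries (20.4% against 18.5%), and the part of this in the positions of the WT-kept regions was not tested. WT-kept regions had a median width of 435 bp, against 510 bp for the other regions and 582 bp for those of like WT rank. The KO-kept regions had a median of 459 bp. These are widths after merging. A WT-kept region was merged from kept intervals of the 3 WT lists alone, while other regions could join intervals of all 6 lists. The rule thus bears on these widths, and nothing is read from their difference.

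**Figure D5:**
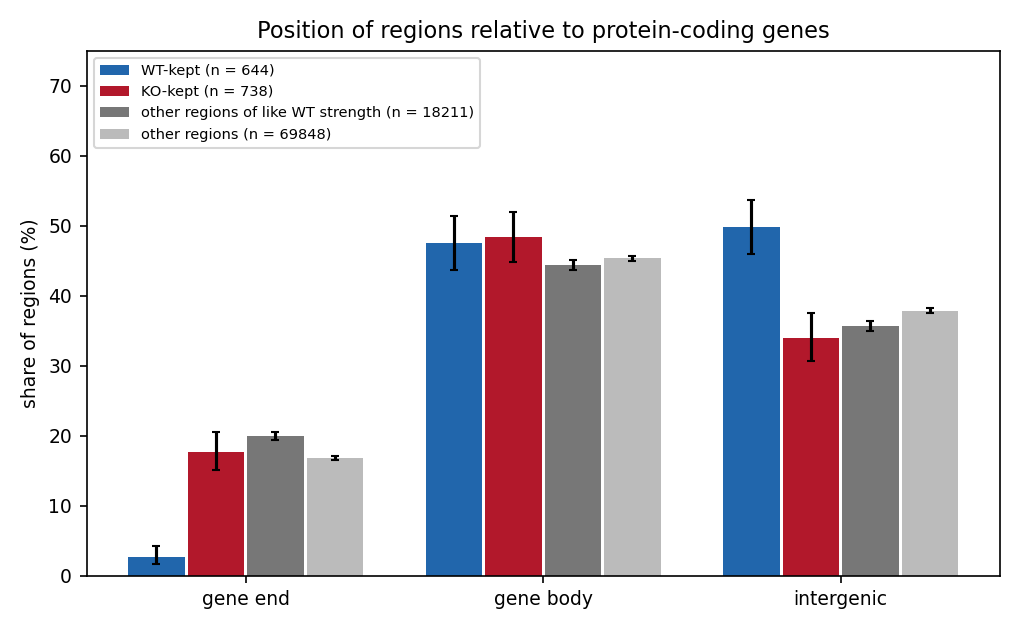
Share of regions (y axis, percent) at gene ends (within 500 bp), in gene bodies and between genes, for WT-kept regions, KO-kept regions, other regions of like rank in WT, and all regions that are not WT-kept. Error bars are 95% Wilson intervals over regions. Gene ends are 2.64% of the WT-kept regions and 17.6%, 19.9% and 16.8% of the other sets.

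The 17 regions at gene ends fell at genes of varied known roles. After Gm28710, the best-ranked was at Acsbg1, an acyl-CoA synthetase gene (chromosome 9, 54604924 to 54605242), with ranks of 71731, 74388 and 50017 in KO and 36369, 14749 and 22877 in WT. At Rnase6, the gene of an antimicrobial ribonuclease (chromosome 14, 51132460 to 51132784), they were 108008, 118166 and 83366 in KO and 32599, 28152 and 17346 in WT. At Dusp26, a phosphatase gene (chromosome 8, 31096900 to 31097478), they were 83722, 97492 and 62280 in KO and 21973, 38436 and 33535 in WT. The Acsbg1 region missed the kept list of KO replicate 3 by 17 ranks, while at Rnase6 every KO rank was at least 2.56 times the worst WT rank.

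At Ifit3b, an interferon-induced gene whose start is printed above and lies within Ifit1bl1 (region on chromosome 19, 34607554 to 34608301), the ranks were 52988, 63952 and 52136 in KO and 27020, 39473 and 32696 in WT. Lcn6, a lipocalin gene (chromosome 2, 25675919 to 25676663), had 69782, 53898 and 64430 in KO and 24065, 35229 and 26802 in WT, and Parp3, the gene of an ADP-ribosyltransferase of DNA repair (chromosome 9, 106470312 to 106470663), 50837, 73389 and 70510 in KO and 38743, 33233 and 18817 in WT. At Pacsin2, a gene of membrane curvature (chromosome 15, 83374931 to 83376029), the KO ranks of 130030, 51441 and 51864 spanned a wide range, and the WT ranks were 21044, 47120 and 35328. At each of these 4 genes at least 1 KO rank was within 5000 of the threshold. The remaining gene ends were those of Ccr1l1, Tmem178, Adgra1, Tmem63a, Itgb1bp1, Thbs4, Fgfr1, Cyb5r2 and Daglb.

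Overlap with an annotated transcript start was rarer still. Outside chromosome 18, 2.07% of the WT-kept regions overlapped a RefSeq promoter window, against 15.6% of the other regions and 18.7% of those of like WT rank. They were 13 regions at 16 windows of 13 genes, 10 of them lncRNA genes and 3 protein-coding (Gm28710, Ifit3b and Lcn6). At Lcn6 the region overlapped only a part of the window that lies before the start. The 6 windows covered whole had 39.3% to 49.3% G and C and 1 to 8 CpG, against medians of 52.7% and 7 over all 32851 windows. An AP-1 match was present at 4 of the 13 genes (Ifit3b, Gm9875, Gm29686 and Gm31013), and in 7.81% of all windows. The CTCF core was present at 2 (Gm32630 and Gm16271) and in 2.43% of all windows, and the GATA motif AGATAA at 4 and in 11.2%. TTTGAA, the CHR element by which DREAM binds promoters of mitotic genes, was present at 5 and in 17.9%. The KLF motif was present at 2 and in 49.5% of all windows, the ETS motif GGAAGT at 2 and in 23.8%, and the TEAD motif GGAATG at 2 and in 14.7%. The FOX motif TGTTTAC was present at 1 and in 3.65%, and the RUNX motif TGTGGTT at 1 and in 5.27%. The CRE, GRHL, NFI and E2F motifs were present at none of the 13 and in 1.79%, 0.271%, 0.807% and 1.07% of all windows. Matches were counted over whole windows, and only 6 of the 16 windows were covered whole. The FOX match (Gm5103) and the GATA matches at Gm32846, Gm32772 and Gm52898 lay outside the WT-kept regions. A match is a string of letters and not evidence of binding. The other 631 regions could not be searched, since no genome sequence was used here.

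Within their spans, 16 genes held at least 2 WT-kept regions. Fhit, a tumour suppressor gene at a common fragile site, was the only host of 3, out of 18 merged regions in its span. Those 3 lay on chromosome 14 between 9703922 and 9786197. The region at 9766633 to 9767060 ranked 66757 in KO replicate 3, with no interval in the other KO lists, and 26297, 43619 and 29953 in WT. The one at 9703922 to 9704347 ranked 104533, 57335 and 59911 in KO and 44100, 37879 and 37315 in WT, and the one at 9785707 to 9786197 ranked 125010 and 68006 in KO replicates 2 and 3, with no interval in KO replicate 1, and 49534, 49120 and 42246 in WT. Hosts of 2 included Sox6 and Rora, genes of transcription factors, Bmpr1b, a BMP receptor gene, Cbl, a ubiquitin ligase gene that acts on growth factor receptors, and Palld, a gene of actin organisation.

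The lists of urothelial, cell cycle and other cell type genes took up a small share of all regions, and their counts say little about the WT-kept regions. Of 9 lists with 186 genes, 7 lists had no WT-kept region in or nearest to a member: 25 luminal urothelial genes (0.326% of all merged regions were theirs), AP-1 and immediate early genes (0.220%), cohesin and CTCF genes (0.0936%), DREAM and cell cycle genes (0.279%), and endothelial (0.0979%), immune (0.0397%), and neural and Schwann cell genes (0.0709%). A count of 0 of 644 allows a share of up to 0.466%, above each of these. The basal list had 1 (0.155% of the WT-kept regions, against 0.248% of all regions), a region 237309 bp from Shh, the gene of a signal from basal cells to the stroma (chromosome 5, 28704410 to 28704858), which ranked 81815, 86423 and 78447 in KO and 44210, 43208 and 40464 in WT. The fibroblast and smooth muscle list had 2 (0.311%, against 0.0908% of all regions). The region in Pdgfrb (chromosome 18, 61068280 to 61068724) ranked 164823, 68716 and 54718 in KO and 43734, 40701 and 46793 in WT, and the region 227087 bp from Fn1, the fibronectin gene (chromosome 1, 71880367 to 71880916), ranked 83057, 128019 and 69217 in KO and 33738, 37356 and 31396 in WT. Within the spans of Stag2 and Stag1 there were 2 and 8 merged regions, none of them WT-kept or KO-kept, and a peak elsewhere in Stag2 does not check the deletion.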

How the data were processed

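The authors deposited 1 narrowPeak list per ATAC-seq library. Per the file names, reads were trimmed, duplicates and mitochondrial reads were removed, peaks were called on Tn5 insertion positions at p 0.01 with a limit on their number, and blacklisted regions were filtered. Build mm10 and DiffBind are named in the submitters' processing notes; no aligner or peak caller is given in the sources used here. For each peak the authors deposited its fold, a ratio to local background, a −log10 p, a −log10 q, a display score deposited by the authors that was not used, and a summit position. Fold depends on depth and enrichment, and read depth is unknown, so fold was used to rank peaks within a list.

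Intervals were ranked, kept and merged as described above with Python 3.11.15, NumPy 2.4.6, pandas 2.3.3 and SciPy 1.17.1; bedtools 2.31.1 gave the same merges on simulated intervals. The rank of a region in a library was that of its best interval in the whole list. For the limma fit it was that of the best interval among the 100000 of highest fold, or 100001 without one. limma 3.58.1 (R 4.3.3, moderated variance with trend, Benjamini-Hochberg) compared KO with WT and was tested on simulated ranks. Gene positions came from a RefSeq table of GRCm38.p6. Figures used matplotlib 3.10.9. Deviations of same-numbered KO and WT libraries from their group means had correlations of 0.12, 0.60 and 0.42 across regions for numbers 1, 2 and 3. KO replicate 3 with WT replicate 1 had 0.35, above the value for number 1. The labels number the libraries within each genotype and state no pairing. The replicate number was used as a block only beside the unblocked fit.

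Members and gene lists were chosen with earlier results of these data known. Named regions were the 12 best by mean WT rank, up to 12 with no KO interval, up to 8 at gene ends, those at list genes, hosts of at least 3, and those at the threshold; Psg22, the 13th without a KO interval, the remaining gene ends, the chromosome 7 copies and the hosts of 2 were named after their values were seen. Alternatives were list lengths of 25000 and 100000, ranking by −log10 p, a −log10 q of at least 2, an overlap of 50%, windows of 250 bp on either side of summits, gene-end windows of 1000 bp, other rank scales, the replicate block, a gene-end covariate and leaving out each library.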

Additional observations from a re-analysis of the deposited data

How the results depend on the processing

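The count of WT-kept regions was 410 with 25000 and 1241 with 100000 intervals per list, and 772 to 3187 when 1 library was left out. It stayed within 1.5 times of 644 with ranking by −log10 p, a −log10 q of at least 2, an overlap of 50% and windows of 250 bp on either side of summits (538 to 914). Regions in no whole KO list numbered 6 and 172 with those list lengths, and 16 to 57 without 1 library. The gene-end share was 4.19% with windows of 1000 bp, 4.28% with ranking by −log10 p and 2.67% to 3.31% without 1 library; the intergenic share without 1 library was 47.2% to 49.5%. In limma, calls lower and higher in KO numbered 3 and 7 with the replicate block (3 WT-kept), 2 and 2 with ranks among 50000 (2 WT-kept), 9 and 12 with linear ranks (9 WT-kept), 25 and 32 with ranks by −log10 p, 0 and 0 with the gene-end covariate (0 WT-kept; 462 and 584 at an unadjusted p below 0.05) and 30 and 28 over regions kept in at least 1 library (23 WT-kept). Without 1 library they were 2 to 2988 lower, 8 to 1018 higher and 2 to 279 WT-kept; the cause was not tested. The median left-out shares of 24.7% in KO and 57.6% in WT moved by less than their spread over pairs under other list lengths and −log10 p ranking. Of 248 values of KO minus WT for the named regions under alternatives, 46 moved by more than the spread between libraries; the rule fixes their direction except under ranking by −log10 p. The depth of the lists limits which weak KO intervals could be seen.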
